A study of Mus musculus with 12 samples.

Results

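The 35 ribosome biogenesis and growth genes described here were a fixed list of symbols, and all 35 were found among the 18992 gene identifiers of the tables. They were followed in droplet-based transcriptomes of sorted PD-1+CD44+CD8+ T cells from female NZB/W F1 mice, the offspring of NZB and NZW parents, which develop lupus nephritis spontaneously. No transgene, deletion or treatment is given for these mice. By title, the cells came from the spleen of mice aged 12 weeks (12W spleen), the spleen of mice aged 28 weeks (28W spleen) and the kidney at that later age (28W kidney), with 4 samples each and 12 in all. Within a group the sample titles differ only in a running number after the letter L, a form also used for sequencing lanes. Whether the 4 samples of a group are lanes of the same library or separate mice is not stated, nor is the number of mice. For the older spleen the age given among the sample characteristics, 12 weeks, contradicts the title, which was followed.

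Each group's tables pool its 4 samples with no map from cells to samples, so a group was treated as 1 library. No difference has a replicate check, and no test was possible. The libraries held 6894, 6481 and 7135 cells in 10, 11 and 12 clusters made by the authors, 33 in all, with 34742303, 32023473 and 29937384 unique molecular identifiers (UMIs, each standing for 1 captured transcript). Between 52 and 66 cell barcodes were shared by a pair of libraries, at most 1.02% of the smaller library. The CD8 T cell marker list stood at 5101 to 6414 UMIs per 1000000 UMIs of the library (CPM) and the CD4 T cell list at 6.97 to 13.0 CPM. Several clusters also carried raised lists of other cells, which are given beside some of the results they touch. Intervals are exact 95% Poisson intervals and cover counting error only.

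A cell that grows has to make ribosomes. RNA polymerase I transcribes ribosomal RNA in the nucleolus, small nucleolar ribonucleoprotein particles (snoRNPs) guide its modification, and a chain of assembly factors builds the small and the large subunit around it before export. Polyamine synthesis, nucleotide supply and the removal of pyrophosphate feed the same growth program, many genes of which are textbook targets of MYC, a transcription factor that binds the E-box CACGTG. In T cells this program is known to switch on after antigen receptor stimulation, ahead of division.

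Promoter sequences of members moving together are shown with that E-box in capitals, to give the regulatory context of the values below. RefSeq windows on GRCm38.p6, from 250 bases before to 50 bases after an annotated start, were at hand for 29 members and not for *Fbl*, *Srm*, *Rrp12*, *Npm1*, *Rrs1* and *Bop1*. The letters CACGTG, which read the same on both strands, were in a window of 9 of the 29 members, or 31.0%, namely *Apex1*, *Eif5a*, *Mettl1*, *Nme1*, *Pes1*, *Ppa1*, *Ran*, *Tsr1* and *Wdr43*. Of all 13218 genes of the tables with a window, 10.6% held them. A match is a description of these letters, not a binding site, and the windows were not compared with binding data. Sequence outside the windows was not searched, so a missing match says nothing about it. Not all members with low ratios in the older spleen held it: *Shmt1*, *Mrto4*, *Ppan*, *Nop16* and *Gar1*, also lower there past 1.5-fold, had no CACGTG in their windows. Of the windows shown to place the motif, those of *Apex1*, *Mettl1* and *Nme1* belong to members low in the older spleen, *Wdr43* had the ratio nearest to 0 there, and *Odc1*, with no CACGTG in its window, was the only member higher in kidney. They lie at chr14:50924699-50924998 (plus strand), chr10:127041682-127041981 (plus), chr11:93968223-93968522 (minus), chr17:71615965-71616264 (plus) and chr12:17544623-17544922 (plus).
*Apex1*: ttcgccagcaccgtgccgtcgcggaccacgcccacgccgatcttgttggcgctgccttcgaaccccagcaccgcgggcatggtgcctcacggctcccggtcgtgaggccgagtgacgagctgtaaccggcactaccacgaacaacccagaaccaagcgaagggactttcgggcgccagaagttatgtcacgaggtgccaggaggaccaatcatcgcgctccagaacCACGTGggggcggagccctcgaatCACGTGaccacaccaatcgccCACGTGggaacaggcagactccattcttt
*Mettl1*: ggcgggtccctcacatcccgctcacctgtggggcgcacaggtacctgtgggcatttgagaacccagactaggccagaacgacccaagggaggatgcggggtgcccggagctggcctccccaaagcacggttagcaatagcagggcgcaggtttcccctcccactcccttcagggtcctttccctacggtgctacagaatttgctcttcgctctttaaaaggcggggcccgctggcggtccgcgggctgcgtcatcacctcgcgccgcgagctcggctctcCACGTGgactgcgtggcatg
*Nme1*: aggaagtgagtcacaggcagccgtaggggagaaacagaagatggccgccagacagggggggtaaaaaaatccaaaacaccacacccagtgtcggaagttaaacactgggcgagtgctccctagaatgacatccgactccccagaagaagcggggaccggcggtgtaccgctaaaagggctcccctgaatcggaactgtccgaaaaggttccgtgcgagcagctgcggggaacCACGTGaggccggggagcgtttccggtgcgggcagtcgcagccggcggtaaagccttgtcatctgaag
*Wdr43*: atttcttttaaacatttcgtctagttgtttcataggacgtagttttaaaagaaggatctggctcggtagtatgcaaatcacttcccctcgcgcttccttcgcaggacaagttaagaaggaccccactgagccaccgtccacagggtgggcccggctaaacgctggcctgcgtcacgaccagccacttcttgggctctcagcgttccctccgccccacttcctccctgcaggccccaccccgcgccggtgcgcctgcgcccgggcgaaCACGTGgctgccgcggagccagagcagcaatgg
*Odc1*: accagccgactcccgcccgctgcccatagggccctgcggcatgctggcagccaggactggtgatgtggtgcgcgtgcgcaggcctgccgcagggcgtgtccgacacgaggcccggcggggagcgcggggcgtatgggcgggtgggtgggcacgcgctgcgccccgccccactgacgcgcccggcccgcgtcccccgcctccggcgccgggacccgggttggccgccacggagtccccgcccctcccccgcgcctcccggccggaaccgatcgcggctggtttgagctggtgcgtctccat
The *Apex1* window held 3 copies, which began 24 bases before the start and at bases 1 and 22 after it. In *Nme1* the copy began 18 bases before the start, and in *Mettl1* it began at base 31 of the transcript.

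Across the libraries, members stood highest in 12W spleen and, apart from *Odc1*, lowest in 28W kidney. In the younger spleen they took 7612 CPM in sum (interval 7583 to 7642). The older spleen gave 5293 CPM (5268 to 5319) and the kidney 3931 CPM (3909 to 3954). For the comparison of age, 28W spleen over 12W spleen, the log2 ratio (1 CPM added) was below 0 for 35 of 35 members, with a median of -0.50 against -0.08 over all 12412 genes with at least 20 UMIs. Lower past 1.5-fold were 10 members, against 3.99% of all tested genes, and 0 were higher, against 5.18%. For the comparison of organ, 28W kidney over 28W spleen, 34 of 35 members were below 0, with a median of -0.55 against 0.11 over all 13189 tested genes. Here 14 members were lower past 1.5-fold, against 4.25% of tested genes, and 1 was higher, against 17.5%. Of all tested genes, 7748 were below 0 for age and 4815 for organ. Both comparisons share the 28W spleen library, so their values are not independent of each other. A library sum weights a cell by its UMIs. The deposited means allow clusters to be weighted by their number of cells, though cells within a cluster still count by their UMIs. Medians were then -0.26 and -0.39, with 3 and 4 members lower past 1.5-fold, against 5.20% and 4.13% of tested genes. Scaled by the median gene ratio, 5 members were lower past 1.5-fold for age, against 3.12%, and with a pseudocount of 10 CPM 5 were for organ, against 1.33%.

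**Figure D1:**
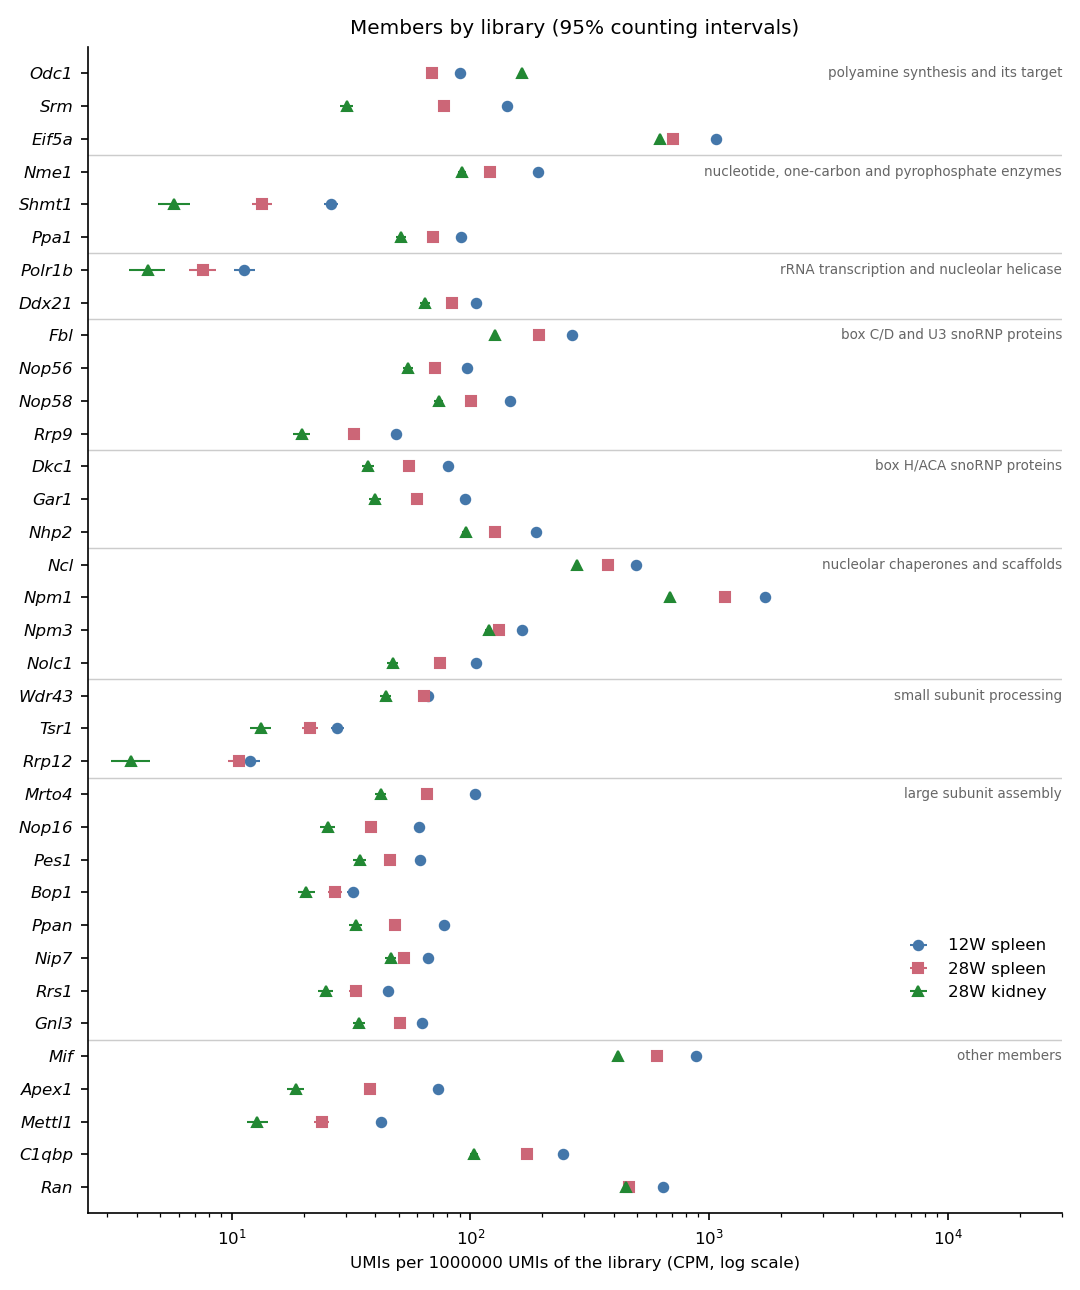
Level of each of the 35 members in UMIs per 1000000 UMIs of the library (CPM, log axis), 1 point per library with its 95% counting interval, grouped by role. The 12W spleen points lie farthest right for every member except *Odc1*, whose 28W kidney point at 164 CPM lies right of both spleens.

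Among the polyamine genes, *Srm* (spermidine synthase, chr4:148591503-148594993) was at 142, 77.2 and 30.3 CPM in the 12W spleen, 28W spleen and 28W kidney libraries, the order kept from here on. Its intervals did not overlap between any pair of libraries, and its organ log2 ratio of -1.32 was the lowest of all members. *Odc1* (ornithine decarboxylase, the enzyme that starts polyamine synthesis, chr12:17544794-17551505) was at 90.1, 68.7 and 164 CPM. It was thus lower in the older spleen (-0.39), as *Srm* was. In kidney it was higher than in 28W spleen (1.25), opposite to *Srm*, which acts after it in the pathway. *Eif5a*, the translation factor that carries a spermidine-derived hypusine, was at 1062, 704 and 621 CPM, with log2 ratios of -0.59 for age and -0.18 for organ.

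Of the metabolic enzymes, *Shmt1* (cytosolic serine hydroxymethyltransferase, chr11:60788104-60811718) was at 26.1, 13.5 and 5.75 CPM, with log2 ratios of -0.91 and -1.10. *Nme1*, a nucleoside diphosphate kinase, was at 191, 121 and 92.4 CPM, lower past 1.5-fold for age (-0.66) but not for organ (-0.38). *Ppa1*, the cytosolic pyrophosphatase, was at 91.0, 69.8 and 51.1 CPM and stayed within 1.5-fold in both. All 3 kept the descending order of the libraries.

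For ribosomal RNA synthesis, *Polr1b*, a core subunit of RNA polymerase I, was at 11.3, 7.56 and 4.44 CPM. *Ddx21*, a nucleolar RNA helicase, was at 105, 83.7 and 64.6 CPM. Only the organ ratio of *Polr1b* (-0.65) was past 1.5-fold in this pair.

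The 7 snoRNP proteins lay close together, with age ratios from -0.43 (*Nop56*) to -0.65 (*Gar1*) and organ ratios from -0.38 (*Nop56*) to -0.70 (*Rrp9*). In the box C/D particles, which methylate ribosomal RNA, the methyltransferase *Fbl* was at 267, 194 and 127 CPM. Its partners *Nop56* and *Nop58* were at 96.7, 71.4 and 54.7 CPM and at 146, 100.2 and 73.5 CPM, and *Rrp9* at 48.9, 32.5 and 19.7 CPM. In the box H/ACA particles, which convert uridine to pseudouridine, the pseudouridine synthase *Dkc1* was at 80.8, 55.0 and 37.2 CPM. The partners *Gar1* and *Nhp2* were at 94.7, 60.0 and 39.9 CPM and at 188, 126 and 95.4 CPM. *Gar1* alone of the 7 was lower past 1.5-fold for age, and *Fbl* and *Rrp9* for organ.

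The nucleolar chaperones and scaffolds kept the same order of libraries. *Npm1* (nucleophosmin) was at 1716, 1167 and 685 CPM, with log2 ratios of -0.56 and -0.77, and *Ncl* (nucleolin) at 492, 377 and 280 CPM. *Npm3* was at 164, 132 and 119 CPM and *Nolc1*, a snoRNP chaperone, at 105, 74.3 and 47.3 CPM. All 4 stayed within 1.5-fold for age, and *Npm1* and *Nolc1* (-0.64) were lower past it for organ.

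*Wdr43* and *Rrp12*, factors of the small subunit, were the members nearest to 0 for age. *Wdr43* was at 66.5, 63.7 and 44.2 CPM and *Rrp12* at 11.9, 10.7 and 3.77 CPM, and the counting intervals of both overlapped between the spleens. *Tsr1* was at 27.7, 21.2 and 13.3 CPM. In kidney *Rrp12* (-1.29) stood beside *Srm* as the lowest, on 113 UMIs in the whole kidney library.

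The 8 large subunit assembly factors had age ratios from -0.25 (*Bop1*) to -0.67 (*Ppan*) and organ ratios from -0.18 (*Nip7*) to -0.63 (*Mrto4*). *Mrto4*, which holds the place of the stalk protein on early particles, was at 105, 65.8 and 42.1 CPM. *Ppan* was at 77.5, 48.4 and 33.04 CPM and *Nop16* at 61.0, 38.5 and 25.3 CPM. These 3 were the ones lower past 1.5-fold for age, and *Mrto4* and *Nop16* also for organ. *Pes1* and *Bop1*, which form 1 complex, were at 61.3, 45.8 and 34.4 CPM and at 32.2, 27.0 and 20.6 CPM. *Nip7* was at 66.7, 52.5 and 46.4 CPM, *Rrs1* at 45.2, 33.1 and 24.8 CPM and *Gnl3* (nucleostemin) at 62.8, 50.7 and 34.2 CPM.

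Of the remaining members, *Apex1*, the endonuclease of base excision repair, had the lowest age ratio of all 35 (-0.93), at 73.1, 37.9 and 18.6 CPM. *Mettl1*, a methyltransferase of transfer RNA, was at 42.4, 23.9 and 12.8 CPM, with ratios of -0.80 and -0.85. Both were thus lower past 1.5-fold in both comparisons, as were *Srm*, *Shmt1*, *Mrto4* and *Nop16*. *Mif*, a secreted cytokine, was at 879, 607 and 414 CPM, and *C1qbp*, a mitochondrial matrix protein, at 245, 172 and 103 CPM. *Ran*, the GTPase of nuclear transport, was at 637, 461 and 447 CPM, and its intervals overlapped between the 28W libraries.

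Within each spleen library the members were concentrated in few cells. In 12W spleen, cluster 7 (372 cells, 5.40% of the library) held 24669 CPM of members against 4754 CPM in the other cells, and all 35 were higher there past 1.5-fold, against 19.4% of tested genes. The median log2 ratio was 2.41, from 1.62 in *Bop1* to 4.24 in *Shmt1*. The cluster held a median of 48.2% of each member's UMIs in that library. Its leading genes included the chemokines *Xcl1* (2088 CPM) and *Ccl4* and the costimulatory receptor *Tnfrsf9* (523 CPM), together with the members *Shmt1* and *Srm*. It had 13405 UMIs per cell against 5040 over the library, and 331 member UMIs per cell. Since the highest cluster was picked by the members themselves, these ratios are a description.

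In 28W spleen, cluster 6 (528 cells, 8.15%) held 11851 CPM of members against 3641 CPM in the other cells, again with 35 of 35 higher past 1.5-fold, against 17.4% of tested genes. The median log2 ratio was 1.58, from 0.83 in *Pes1* to 4.07 in *Shmt1*. Its leading genes were cell cycle genes such as *Pclaf*, *Birc5* and *Ccna2*, and *Xcl1* (584 CPM) and *Tnfrsf9* (153 CPM) were also highest there. Set directly against cluster 7 of 12W spleen, all 35 members were lower past 1.5-fold in cluster 6, against 14.2% of tested genes, with a median of -1.10 against 0.02 over all tested genes. The ratios ran from -1.50 in *Ppan* to -0.71 in *Ran*. The clusters were made within each library, so their cells need not correspond.

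In 28W kidney no cluster stood out to that extent. Cluster 8 (544 cells, 7.62%) was the highest, with 5960 CPM against 3722 CPM in the other cells and a median log2 ratio of 0.60, and 19 of 35 members were higher past 1.5-fold, against 11.3% of tested genes. The ratios ran from -0.44 in *Npm3* to 2.96 in *Odc1*. This cluster was led by immunoglobulin genes, *Ebf1*, *Ms4a1* and *Cd79a*, its B cell marker list stood at 2953 CPM against 200.04 CPM in the other cells, and its CD8 T cell list at 2626 CPM was below the 6414 CPM of the library. The part of those cells in the result was not tested. Without all kidney clusters with raised markers of other cells, cluster 4 was the highest, with a median of 0.16.

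**Figure D2:**
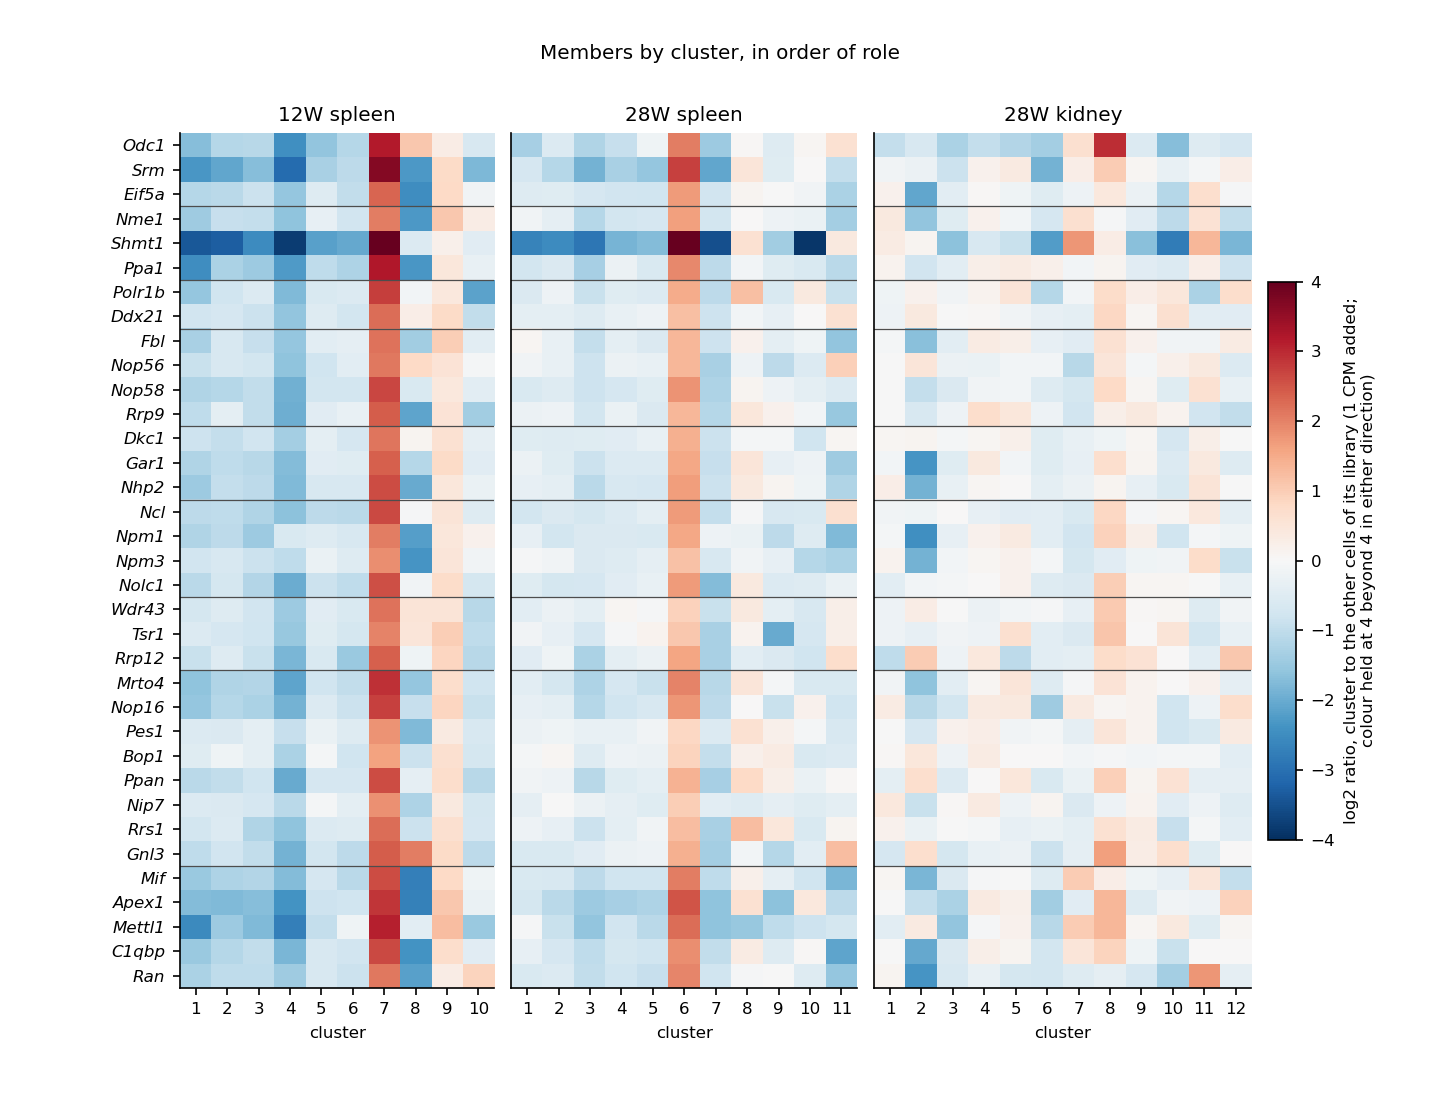
Log2 ratio of each member in each of the 33 clusters to the other cells of the same library (1 CPM added), rows in order of role. Cluster 7 of 12W spleen and cluster 6 of 28W spleen are red in all 35 rows, while the 28W kidney columns are mixed in sign, with *Odc1* in cluster 8 the highest value (2.96) and *Npm1*, *Ran* and *Gar1* low in cluster 2.

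A further cluster of 12W spleen came second for the members. Cluster 9 (280 cells) held 11421 CPM of members, with 20 of 35 higher past 1.5-fold, against 5.27% of tested genes, and a median of 0.64. The members *Mettl1*, *Nme1* and *Apex1* were among its leading genes, beside *Hivep3* and *Nfkb2*. It also came second to cluster 7 for *Xcl1* (314 CPM) and *Tnfrsf9* (166 CPM). The lowest of the clusters by the median ratio was cluster 4 of 12W spleen (-1.74), where *Srm* was at 18.8 CPM, a level 36.0 times below that of cluster 7.

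*Srm* and *Shmt1* showed the steepest contrast. *Srm* reached 678 CPM in cluster 7 and 231 CPM in cluster 9 of 12W spleen and 243 CPM in cluster 6 of 28W spleen, while its kidney clusters lay between 7.76 and 56.4 CPM. *Shmt1* was at 143 CPM (132 to 153) in cluster 7 and 57.1 CPM (51.4 to 63.2) in cluster 6. These clusters held 78.4% and 85.4% of its UMIs in their libraries. Elsewhere it was at most at 29.7 CPM (22.8 to 38.2), in cluster 9 of 12W spleen, and it had 0 UMIs in cluster 10 of 28W spleen and in cluster 10 of 28W kidney, where 3 counts would be 4.34 and 3.87 CPM.

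*Odc1* peaked in the same spleen clusters as *Srm*, but its highest level of all clusters was in kidney. It was at 380 CPM in cluster 7 of 12W spleen and 176 CPM in cluster 6 of 28W spleen, and at 786 CPM in the B cell marked cluster 8 of kidney, which held 44.8% of its kidney UMIs. Next in kidney came cluster 7 with 248 CPM, whose kidney tubule marker list stood at 4799 CPM against 27.9 CPM in the other cells. The other kidney clusters lay between 50.4 and 119 CPM, all above the 48.9 CPM of the median cluster of 28W spleen. Without cluster 8 the kidney level was 100.1 CPM. Without all clusters with raised markers of other cells it was 84.4 CPM against 68.6 CPM in spleen, and the organ ratio of 0.30 was no longer past 1.5-fold. That setting left out 5 kidney clusters with 2470 cells, among them cycling cluster 11, and kept cycling cluster 6 of 28W spleen. It gave the lowest organ ratio of *Odc1* over the alternatives, and the highest was 2.01, without the cluster with the most cell cycle transcripts. The kidney was digested with collagenase, and the heat shock gene *Hspa1a* was at 670 CPM there against 24.9 CPM in 28W spleen. Across the kidney clusters *Hspa1a* ran from 90.6 CPM in cluster 8 to 1164 CPM in cluster 2, and its part in the *Odc1* level was not tested.

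**Figure D3:**
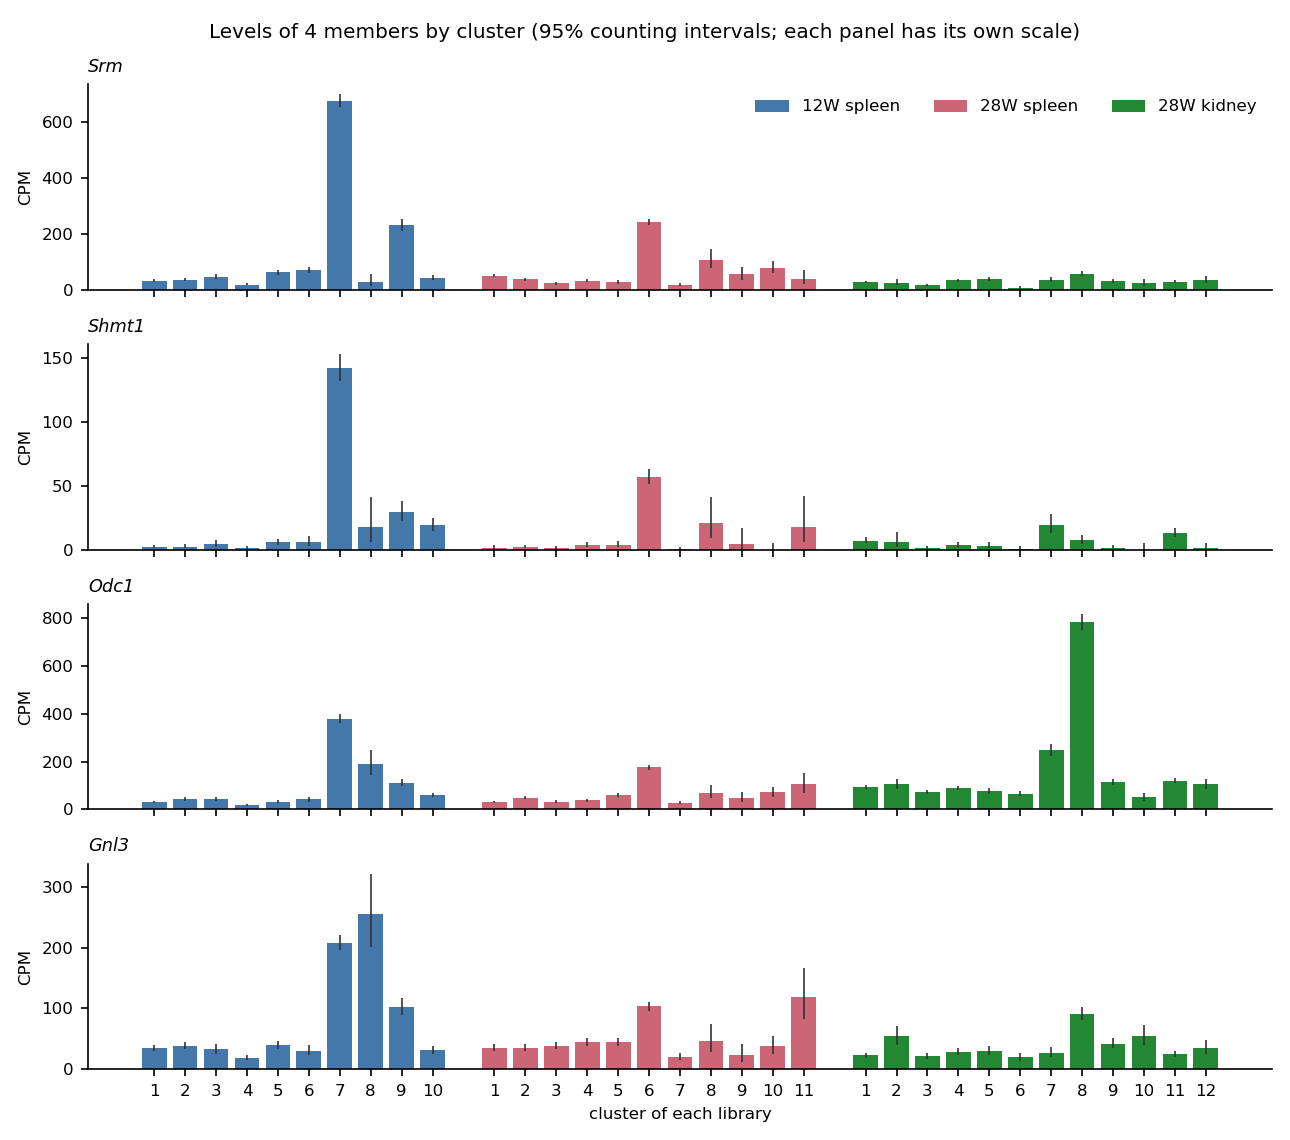
Level in CPM of *Srm*, *Shmt1*, *Odc1* and *Gnl3* in each cluster of the 3 libraries, bars with 95% counting intervals and a linear axis from 0 in each panel. *Srm* and *Shmt1* peak in cluster 7 of 12W spleen, *Odc1* in cluster 8 of 28W kidney, and *Gnl3* is high in clusters 7 and 8 of 12W spleen.

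In some clusters with little RNA, members parted from each other. Cluster 8 of 12W spleen had 928 UMIs per cell and 8.98% mitochondrial UMIs, and it held the lowest summed level of members in that library, 3124 CPM. *Gnl3* (chr14:31012433-31019152) was nevertheless at 256 CPM (201 to 322) there, above the 208 CPM (196 to 221) of cluster 7, although on 73 UMIs. *Odc1* at 190 CPM, *Nop56* at 168 CPM and *Ncl* at 477 CPM were also above the median cluster, while *Mif* (133 CPM) and *Npm1* (376 CPM) were at their lowest. Cluster 11 of 28W spleen, with 1288 UMIs per cell and 6.64% mitochondrial UMIs, showed *Gnl3* at 119 CPM and *Npm1* at 347 CPM, the highest and the lowest value of each in that library. Cluster 8 of 28W spleen, with 1020 UMIs per cell and 1.71% mitochondrial UMIs, did not show this, with *Gnl3* at 46.9 CPM, *Npm1* at 962 CPM and a median log2 ratio of 0.14. Its erythroid marker list stood at 40824 CPM and its neutrophil list at 25739 CPM. In kidney cluster 2, with 1200 UMIs per cell and 10.8% mitochondrial UMIs, *Npm1* was lowest at 128 CPM. The erythroid list of that cluster stood at 2147 CPM against 262 CPM in the other cells. The part of RNA quality in these values was not tested.

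Cell cycle transcripts had another distribution. The 18 genes of the cell cycle list had a median log2 ratio of 0.01 for age. There 0 of 18 were past 1.5-fold in either direction, against 3.99% of tested genes lower and 5.18% higher. For organ the median was 0.94, and 12 were higher, against 17.5% of tested genes. In 12W spleen the cluster with the most cell cycle transcripts was cluster 10 (13943 CPM of the list), and there 18 members were lower past 1.5-fold than in the other cells, against 21.5% of tested genes, with a median of -0.65 from -2.14 in *Polr1b* to 0.90 in *Ran*. Without cluster 7 in the comparison, a choice made after seeing the data, the median was 0.26. In 28W spleen the cycling cluster was cluster 6 itself. In 28W kidney it was cluster 11 (19031 CPM of the list), with a median of -0.09 but a summed level of 5159 CPM against 3737 CPM in the other cells, where 5 members were higher, against 12.1% of tested genes, and 4 lower, against 29.3%. The erythroid marker list was also raised in kidney cluster 11, at 1809 CPM against 87.1 CPM in the other cells, and *Igkv3-4* and *Ighv1-19* were among its leading genes. *Ran* had the highest ratio of all members in the cycling clusters of 12W spleen and kidney, at 1106 and 1142 CPM, and *Polr1b* the lowest.

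**Figure D4:**
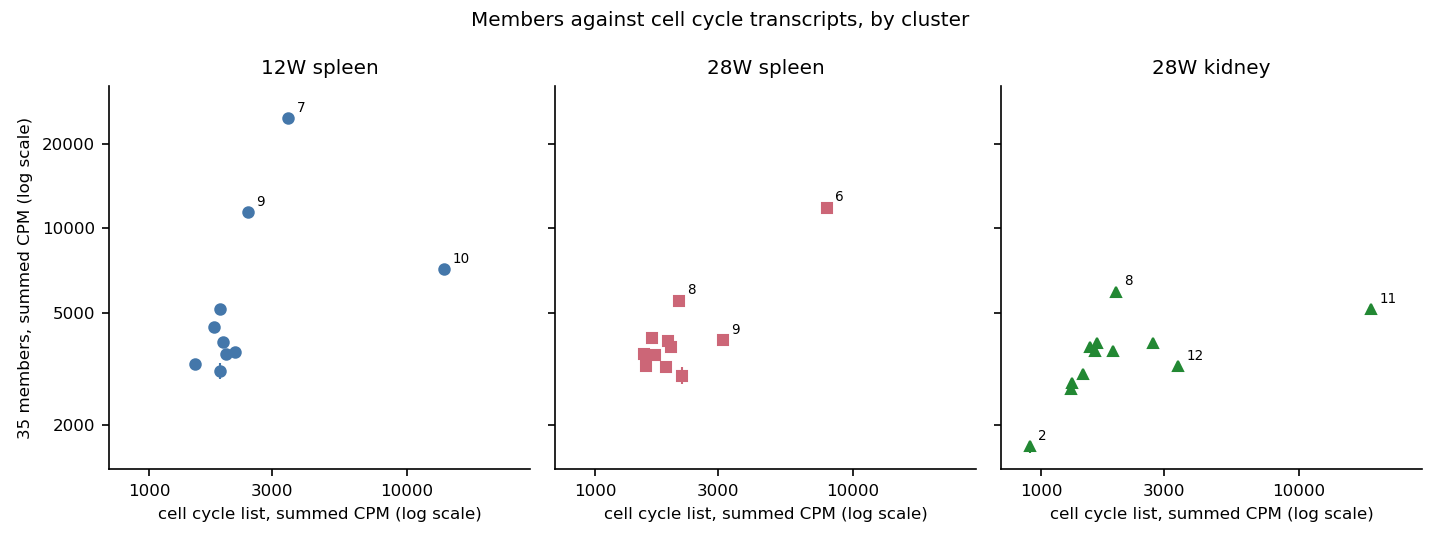
Summed level of the 35 members against the summed level of the cell cycle list in each cluster (both CPM, log axes, vertical 95% counting intervals), with clusters at the edges numbered. In 12W spleen clusters 7 and 10 separate the axes, in 28W spleen cluster 6 is high on both, and in 28W kidney cluster 11 is highest on the cell cycle axis and, with 5159 CPM of members, second to cluster 8 on the other.

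Because 12W spleen split into a cluster high for members and a cycling cluster while 28W spleen held 1 cluster with both, clusters 7 and 10 of 12W spleen were also joined, again after seeing the data. These 582 cells were 8.44% of the library, close in number to the 528 cells and 8.15% of cluster 6. They held 18079 CPM of members against 11851 CPM in cluster 6, and the other cells 4482 CPM against 3641 CPM. The median log2 ratio to the other cells was 1.96 in the joined clusters.

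The library differences were smaller without those few clusters. With the highest cluster of each library left out, the summed level was 4754, 3641 and 3722 CPM. For age the median log2 ratio was then -0.25, 31 of 35 members were below 0, and 3 were lower past 1.5-fold, a share close to the 7.06% of all tested genes. The 3 were *Shmt1* (-1.13), *Apex1* (-0.97) and *Nme1* (-0.63), while *Wdr43* was at 0.29. For organ the median was -0.13, with 23 of 35 below 0, *Rrp12* (-0.89) lower past 1.5-fold, against 5.15% of tested genes, and *Odc1* (1.24), *Shmt1* (0.93) and *Ran* (0.65) higher, against 19.4%. The clusters left out were unlike, since cluster 6 was the cycling cluster of 28W spleen. Cycling clusters 10 of 12W spleen and 11 of kidney stayed in, and in kidney cluster 11 *Ran* was at 1142 CPM and *Shmt1* at 12.9 CPM. Leaving out instead the cluster with the most cell cycle transcripts, which in 28W spleen is the highest member cluster, gave a median of -1.05 for age and -0.046 for organ. From the library sums alone, fewer cells of a high cluster and a lower level within it cannot be told apart. By cluster, 28W spleen had 528 cells at 11851 CPM of members in cluster 6. In 12W spleen, 372 cells were at 24669 CPM in cluster 7, and 582 cells at 18079 CPM with cluster 10 joined. The part of each in the library differences was not tested.

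**Figure D5:**
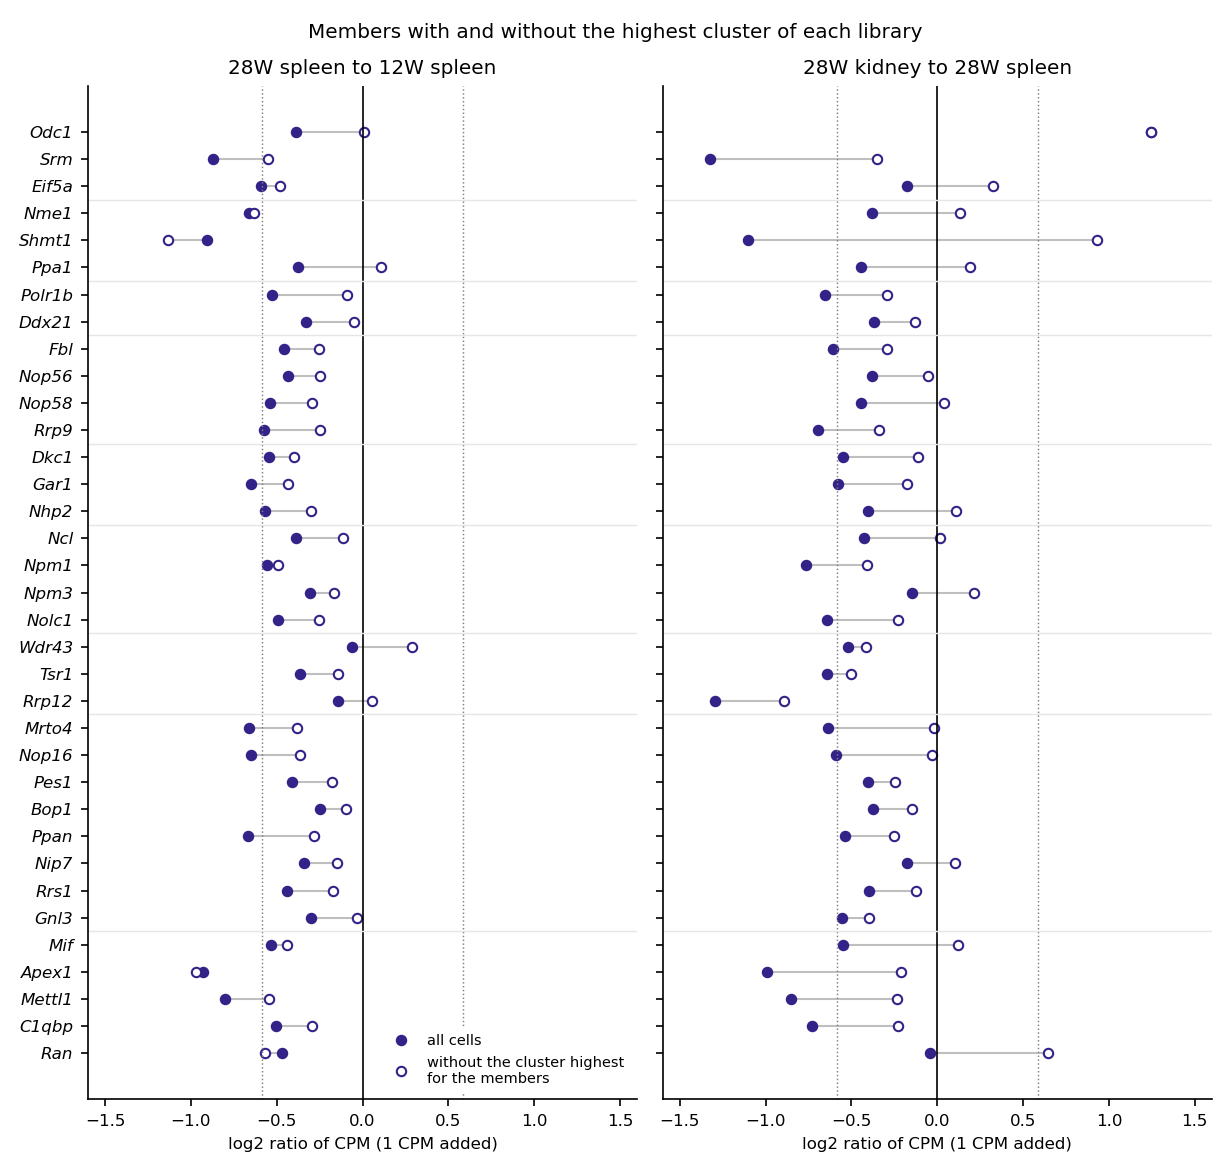
Log2 ratio of each member for age (28W spleen to 12W spleen) and organ (28W kidney to 28W spleen), over all cells (filled) and without the highest member cluster of each library (open), with dotted lines at 1.5-fold. Most open points lie nearer 0, the exceptions including *Shmt1*, *Apex1* and *Ran* for age and *Ran* for organ.

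Most genes of the same pathways outside the members were also below 0, with medians nearer to it. Of 143 tested genes in 7 lists, 128 were below 0 for age with a median of -0.26, and 7 were lower and 1 higher past 1.5-fold, so that the 4.90% lower was close to the 3.99% of all tested genes. For organ 118 were below 0, with a median of -0.24, 22 lower (15.4%, against 4.25%) and 3 higher. *Myc* was at 153, 79.3 and 42.1 CPM in the 3 libraries (-0.94 and -0.90), and its antagonist *Mxd1* at 10.1, 16.1 and 29.9 CPM. In clusters, *Myc* reached 541 CPM in cluster 7 of 12W spleen, 167 CPM in cluster 6 of 28W spleen and 199 CPM in cluster 8 of kidney, the same clusters as the members.

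Shares past 1.5-fold over all tested genes were 3.99% lower and 5.18% higher for age, and 4.25% and 17.5% for organ. By list, 0 of 43 genes of the small subunit processome and 2 of 39 large subunit factors were lower past 1.5-fold for age, *Nle1* (-0.68) and *Ddx56* (-0.64), and 0 were higher. For organ 7 and 5 were lower, among them *Wdr46* (-0.98), *Mdn1* (-0.86) and *Nop2* (-0.85). None of 9 tested RNA polymerase I genes was past 1.5-fold in either comparison, with *Taf1d* at 0.23 and -0.21. Of 8 snoRNP assembly genes 0 were past it for age and 1 was lower for organ, with *Ruvbl1* at -0.45 in both. Of 24 genes of one-carbon and nucleotide synthesis, 3 were lower for age, including *Mthfd1* (-0.66) and *Shmt2* (-0.60), and for organ 8 were lower, including *Atic* (-0.89), and 1 higher, *Tyms* (0.90), the thymidylate synthase of dividing cells. Of 10 other polyamine genes 1 was lower for age and 0 were past 1.5-fold for organ, where 9 were above 0 and *Azin1*, an inhibitor of the antizyme that restrains ornithine decarboxylase, was at 0.47.

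The ribosomal proteins themselves did not share the members' age ratio. Over 81 tested cytosolic ribosomal protein genes the median was 0.01 for age and -0.42 for organ, where 78 were below 0. Members without ribosomal protein, receptor and mitochondrial genes in the total had a median of -0.47 for age and -0.71 for organ. The quiescence list, with *Klf2* at 746, 1133 and 323 CPM, had medians of 0.32 and -0.60, so that it stood opposite to the members for age and on the same side for organ.

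Pooled over the 33 clusters the members varied together, but not all of them did so within the kidney. Pearson's r of each member with the mean of the others, on log2 levels centred within each library, ran from 0.56 (*Gnl3*) through a median of 0.81 to 0.96, with 18 members above 0.8. Within 12W spleen it ran from 0.62 (*Gnl3*) to 0.99 (*Mrto4*), and within 28W spleen from 0.56 (*Gnl3*) to 0.98 (*Nop58*). Within 28W kidney the range was from -0.19 (*Bop1*) to 0.86 (*Nop58*), with *Rrp12* at -0.10 and *Nop56* at 0.04. Of 2998 genes compared, the 10 most like the members were *Cct3* (0.96), *Nsun2* (0.95), *Timm8a1*, *Eif3b*, *Shmt2*, *Hspd1*, *Ruvbl1*, *Pa2g4*, *Rsl1d1* and *Phb* (0.90). *Myc* had an r of 0.75, the T cell activation list 0.64, the cell cycle list 0.35 and UMIs per cell 0.40. Within the younger spleen r with the cell cycle list was 0.23, within the older spleen 0.80 and within the kidney 0.23. Clusters of a library share its preparation and depth, and the scale is compositional, so these values are descriptions over clusters and not over mice.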

How the data were processed

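Transcripts were counted in single sorted PD-1+CD44+CD8+ T cells, with 4 samples pooled per group, which may be sequencing lanes or separate mice. Per the labels, libraries used 10x Genomics 5′ chemistry. The study's methods give GRCm38 and the vdj pipeline of Cell Ranger, and the submitters' processing notes list Cell Ranger 2.1.1 and R 3.6.1. The annotation release and cell filters are not given in the sources used here, nor is any treatment of doublets. The tables hold cluster means and no counts per cell, so no doublet caller was run and no doublets were removed here. The authors deposited, per library, cluster assignments of cells and a table of each gene's mean count per cluster, a scaled signal in which every value was a whole multiple of the value of 1 UMI (100% within 0.001 of a whole number). The tables also hold the authors' log2 fold changes and adjusted p-values for each cluster, which were not used. T cell receptor files were not analysed here.

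UMIs were recovered by dividing by that step, summed over clusters and scaled to CPM of each library. Log2 ratios used a pseudocount of 1 CPM, which understates changes of low genes, and past 1.5-fold was read against all genes with at least 20 UMIs on both sides together. Each group was treated as 1 library, so no test was made. Members and lists were chosen with earlier results of these data known, and the study itself names several members, *Srm* and *Mif* among them, as genes of its clusters, so they are not independent evidence. All members were named, with Myc, up to 3 genes per pathway list with the largest ratio among those at 20 CPM or more, and the 10 genes most like the members among those at 50 CPM or more. Genes leading a cluster were named after their values were seen. Of the identifiers, 18960 were matched in GENCODE M21 (GRCm38), and promoter windows came from RefSeq. *Npm1*, *Ran*, *Nme1*, *Eif5a* and *Mif* have near-identical copies or pseudogenes that could share reads. Recovery and ratios were tested on simulated data with a gene of 1 UMI per cluster set in advance and Poisson counting error only. That checks the arithmetic and does not cover differences between cells or mice. Analyses used Python 3.11.15, pandas 2.3.3 and scipy 1.17.1. The alternatives were other pseudocounts, minimums, scalings and sets of clusters.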

Additional observations from a re-analysis of the deposited data

Results flagged for a closer look

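Compared with all other cells, the members stood on opposite sides in the cycling clusters of the spleens. In 12W spleen the median log2 ratio over 35 members in cluster 10, the cluster with the most cell cycle transcripts, was -0.65, with 3 members above 0. In 28W spleen the same value for cluster 6 was 1.58, with 35 above 0. What drew attention was that the direction differed between the spleens. Against the other cells without cluster 7, the value for cluster 10 was 0.26, with 21 of 35 above 0, on the same side as in 28W spleen. With 1 library per age the difference was not tested, and the libraries were clustered separately. In cluster 6 the T cell activation list was at 1170 CPM against 339 CPM in cluster 10. The cycling cluster of 28W kidney lay between them at -0.09.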

How the results depend on the processing

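No paired analysis was possible because each group's tables pool its samples, and for the same reason no replicate could be left out. No median over the members changed sign. Of 117 recomputed values, 79 stayed within the counting interval or within 1.5 times the count, and 38 moved beyond it. Some of the 79 were fixed by construction, since the other minimums of UMIs kept all members and could not change their values. The highest cluster was picked anew by the members in each setting, so a change of sign there was hardly possible. For age the median of -0.50 became -0.42 scaled by the median gene ratio, -0.26 from the deposited means averaged over cells, -0.56 without clusters with raised markers of other cells, -1.05 without the cluster with the most cell cycle transcripts, -0.25 without the highest member cluster, -0.27 also without clusters of low UMIs per cell (chosen after seeing the data) and -0.61 with clusters weighted equally. The 10 members lower past 1.5-fold for age became 5 scaled by the median ratio, 3 from the deposited means, 33 without the cell cycle cluster, 3 without the highest cluster, 4 also without clusters of low UMIs and 20 with clusters weighted equally. The shares of all tested genes lower in these settings were, in that order, 3.12%, 5.20%, 8.75%, 7.06%, 7.39% and 8.63%. For organ the median of -0.55 became -0.44 with a pseudocount of 10 CPM, -0.65 scaled by the median ratio, -0.71 with receptor, mitochondrial and ribosomal protein genes out of the total, -0.39 from the deposited means, -0.61 without clusters with raised markers, -0.046 without the cell cycle cluster, -0.13 without the highest cluster, -0.12 also without clusters of low UMIs and -0.42 with clusters weighted equally. The 14 lower for organ became 5, with that pseudocount, 22 with those genes out of the total, 4 from the deposited means, 1 without the cell cycle cluster, 1 without the highest cluster, 1 also without clusters of low UMIs and 7 with clusters weighted equally. All tested genes gave shares of 1.33%, 7.35%, 4.13%, 3.76%, 5.15%, 5.30% and 5.39% lower, in the same order. The 1 higher, *Odc1*, became 0 without clusters with raised markers, 2 without the cell cycle cluster, 3 without the highest cluster and 3 also without clusters of low UMIs. The matching shares of all tested genes higher were 8.13%, 17.6%, 19.4% and 19.6%. In the highest cluster of 12W spleen the median of 2.41 became 2.17 with a pseudocount of 10 CPM and 2.66 scaled by the median ratio. In 28W spleen 1.58 became 0.64 without the cell cycle cluster, with cluster 8 then the highest. In 28W kidney 0.60 became 0.97 scaled by the median ratio and 0.16 without clusters with raised markers. Over the 14 alternatives, 30 members stayed below 0 throughout for age and 18 for organ. The settings that leave out clusters use other cells by construction, and the cause of the other shifts was not tested. Depth limits *Rrp12*, *Polr1b* and *Shmt1* most, and with 1 library per group no interval covers differences between mice.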
